A study of Mus musculus with 12 samples.

Results

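The amino acid and neurotransmitter solute carriers were taken as all genes with a symbol in the Slc1, Slc3, Slc6, Slc7, Slc36, Slc38 or Slc43 series, which gave 63 of the 19084 genes with a named probe in mouse liver. There were 7 genes of SLC1, 2 of SLC3, 20 of SLC6, 16 of SLC7, 4 of SLC36, 11 of SLC38 and 3 of SLC43. The count for SLC7 includes Slc7a6os, which is named for a neighbouring carrier and is not one. All 63 carried a gene ID found in RefSeq. They had 75 probes in all, and the brightest probe stood for each gene. With no filter on low values, all 63 were tested, and 17 of them lay in the dimmest 25% of genes, where differences are least certain.

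These proteins carry amino acids and their relatives across membranes. SLC7 light chains form pairs with an SLC3 heavy chain and mostly exchange one amino acid for another, SLC38, SLC6 and SLC1 carriers draw on the sodium gradient, and SLC36 carriers move amino acids with protons, in part out of lysosomes. In liver they bring in alanine, glutamine, arginine, glycine and taurine for urea, glucose, glutathione and bile salt synthesis, while several SLC6 members are best known for taking up neurotransmitters in neurons.

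Liver RNA of male C57BL/6 mice was read on 12 single-colour arrays, 3 for each of 4 groups, to follow fatty liver under a high-fat diet and an extract of citrus flavonoids (PTFC). PTFC mice ate the high-fat diet for 24 weeks and received 50 mg of the extract per kg per day into the stomach over the last 18 weeks, and were 31 to 33 weeks old. HFD24 mice ate that diet for 24 weeks (31 to 33 weeks old), HFD16 mice for 16 weeks (23 to 25 weeks old), and ND mice a normal diet for 24 weeks (31 to 33 weeks old for the first array and 30 to 32 for the others). Animals without the extract were given saline, and all were fasted for 12 hours. The high-fat diet held 36.1% fat with 2% cholesterol, lard, egg yolk powder and bile salt, against 12.3% fat in the normal diet, at 21.6% and 21.5% protein. The labels count 6 mice per group but do not say that the arrays came from separate animals, so the p-values reflect the spread of these arrays alone, technical or not. Wherever HFD16 is compared with another group, age differs too.

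Of 9 hepatocyte markers 8 were measured, and all 8 lay in the brightest 10% of genes. Array medians of the deposited intensity were 369 to 408 in PTFC, 249 to 338 in HFD24, 278 to 330 in HFD16 and 300 to 379 in ND. Those of PTFC thus lay above all of HFD24 and HFD16 before normalization. The values of each array came in steps of one size, 0.856 to 1.03 in PTFC, 0.855 to 1.12 in HFD24, 0.675 to 1.05 in HFD16 and 1.23 to 1.46 in ND, so that the ND arrays stood apart from all others in this technical measure. Levels below are quantile-normalized log2(intensity + 1), which understates changes of dim genes, and a level of one probe cannot be set against that of another. Differences are log2 values with their standard error (SE, n = 3 arrays per group) from limma over all genes, with Benjamini-Hochberg adjustment, and a gene rose or fell where the adjusted p was under 0.05. In bulk liver, fewer cells of a type and less RNA per cell cannot be told apart.

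The carriers that rose on the high-fat diet were Slc7a7, Slc38a1, Slc36a1 and Slc7a1, in HFD24 as in HFD16. Lower in HFD24 were the neutral amino acid carrier Slc6a15, the noradrenaline carrier Slc6a2, Slc7a4 and the sodium-coupled neutral carrier Slc38a2. HFD16 had lower Slc6a15, Slc7a4, the arginine carrier Slc7a2, the dopamine carrier Slc6a3 and the heavy chain Slc3a2. Both comparisons share the ND arrays. In HFD24 against ND, 8 of 63 members passed (12.7%, with 4 higher and 4 lower), while 18.3% of all genes did (9.97% higher and 8.28% lower). In HFD16 against ND, 9 passed (14.3%, with 4 higher and 5 lower), against 18.1% of all genes (10% higher and 8.11% lower). In both comparisons the share of members called lay below that of all genes. The arrays of HFD24 and ND did not overlap for 17 members (27%, against 33.6% of all genes), and those of HFD16 and ND for 15 (23.8%, against 35.8%). The median difference of the members was -0.14 in HFD24 against ND, beside -0.06 over all genes, and -0.15 in HFD16 against ND, beside -0.03.

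These counts leaned on single arrays, and so did the counts over all genes. In HFD24 against ND, 5 members (7.94%, against 9.11% of all genes) passed without ND replicate 1, 3 (4.76%, against 9.96%) without ND replicate 2 and 13 (20.6%, against 25.9%) without ND replicate 3. Without HFD24 replicate 1 or 3 there were 5 (7.94%, against 10.4% and 13.9%). In HFD16 against ND, 4 members (6.35%, against 7.02% and 9.98%) passed without ND replicate 1 or 2, 15 (23.8%, against 23.6%) without ND replicate 3 and 3 (4.76%, against 8.3%) without HFD16 replicate 3. On the values as deposited, without quantile normalization, HFD24 against ND gave 3 higher and 7 lower members (15.9%, against 16.8% of all genes), and HFD16 against ND 3 higher and 10 lower (20.6%, against 18.3%), while the median of all genes shifted by -0.23 and -0.22. Median centring gave 4 higher and 5 lower members in HFD24 against ND (14.3%, against 18.1% of all genes). In HFD16 against ND it gave 4 higher and 4 lower (12.7%, against 20.7%). That setting ended the HFD24 calls of Slc38a2 and Slc7a1 and the HFD16 calls of Slc3a2, Slc6a3 and Slc7a2. With the step size of each array as a covariate, 1 member (1.59%) passed in either comparison, Slc7a7 in HFD24 against ND, where 2% of all genes passed, and Slc36a1 in HFD16 against ND, where 0.529% did. The steps of the ND arrays were larger than all others, so this covariate is largely confounded with diet in comparisons with ND. Calls lost with it there cannot tell a technical difference from one of diet. Over the 18 alternatives the share of members was below that of all genes in all 18 for HFD24 against ND. For HFD16 against ND it was below in 14. The alternatives reuse the same arrays, so these counts are not independent support. Without the dimmest 25% of genes, 10 of 46 members (21.7%) passed in HFD24 against ND, close to the 22.6% of all genes. In HFD16 against ND that setting gave 19.6% of members, against 22.9%. Whether the shares differ was not tested.

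**Figure D1:**
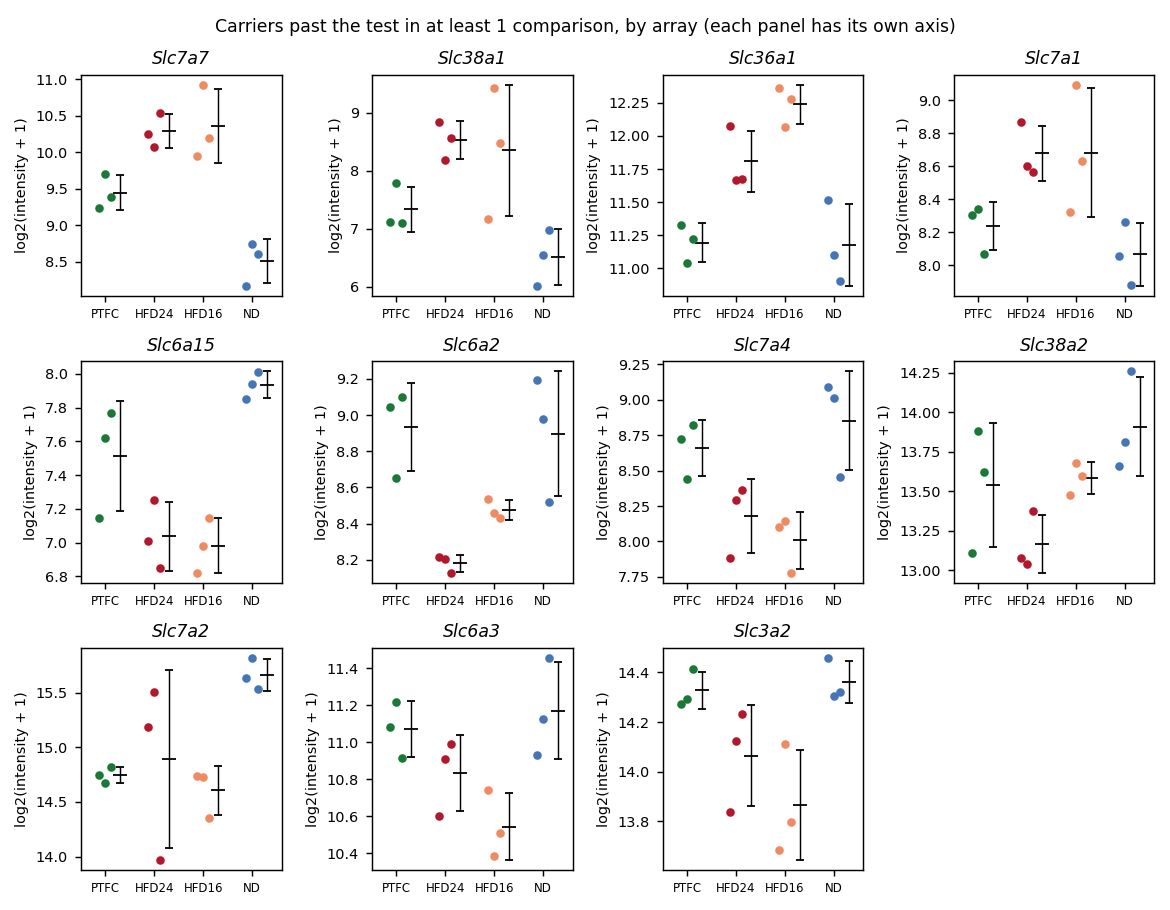
Levels of the 11 members called in any comparison, as quantile-normalized log2(intensity + 1) on each array (points) with the mean and SD (bars) of 3 arrays in PTFC, HFD24, HFD16 and ND. Each panel has its own axis. The means of Slc7a7, Slc38a1, Slc36a1 and Slc7a1 were higher in HFD24 and HFD16 than in PTFC and ND, and those of Slc6a15 and Slc7a4 were highest in ND.

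Among the light chains of SLC7, Slc7a7 showed the firmest difference. It encodes a light chain that joins Slc3a2 and exports lysine and arginine in exchange for neutral amino acids, and human mutations in it cause lysinuric protein intolerance. Its levels were 9.24, 9.71 and 9.39 in PTFC, 10.25, 10.08 and 10.54 in HFD24, 9.95, 10.92 and 10.19 in HFD16, and 8.17, 8.75 and 8.61 in ND. All HFD24 and HFD16 arrays lay above all PTFC arrays, and all PTFC arrays above all ND arrays. Slc7a7 stood 3.44-fold above ND in HFD24 (1.78 ± 0.25, limma adjusted p = 0.000922) and 3.6-fold higher in HFD16 than in ND (1.85 ± 0.25, limma adjusted p = 0.00115). PTFC differed from HFD24 by -0.84 ± 0.25 without passing in the main fit (limma adjusted p = 0.0631), and from ND by 0.94 ± 0.25 (limma adjusted p = 0.0687). The HFD24 difference from ND passed in all 18 alternative settings, between 1.07 and 1.91.

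Slc7a7 is transcribed in macrophages as well as in epithelia, and markers of macrophages, among those of other cells, moved with it. Of 12 macrophage and monocyte markers 10 were measured, none in the dimmest 25%, and all 10 rose in HFD24 against ND, 7 rose in HFD16 against ND and 1 fell in PTFC against HFD24. Their summed intensity was 26916 to 42792 in PTFC, 64919 to 76555 in HFD24, 17536 to 71304 in HFD16 and 8194 to 12744 in ND. HFD24 was thus 6.55-fold above ND and PTFC stood at 0.494 of HFD24, with no overlap in either pair (exact permutation p = 0.1, the smallest that 3 against 3 can give). All 6 Kupffer cell markers rose in HFD24 against ND, with sums of 44786 to 55905 in PTFC, 75920 to 132965 in HFD24, 28714 to 103112 in HFD16 and 12370 to 32358 in ND. Within HFD16 the second array was the highest and the first the lowest in Slc7a7 and in both sums. The same order held in the sums of T and NK cell, B cell, neutrophil and stellate cell markers, so it was not particular to macrophages. PTFC also stood at 0.635 of HFD24 in the T and NK cell sum and at 0.425 in the neutrophil sum, without overlap (exact permutation p = 0.1). Summed hepatocyte markers ran from 2223270 to 2307920 in PTFC, from 2131460 to 2243770 in HFD24, from 2022640 to 2158280 in HFD16 and from 2148820 to 2293110 in ND, with 1 member of 8 lower in HFD24 against ND. All sums come from quantile-normalized values, which limits how far those of genes this bright can move. They cannot show whether hepatocyte content was steady. The part of cell composition in the carriers' differences was not tested.

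**Figure D2:**
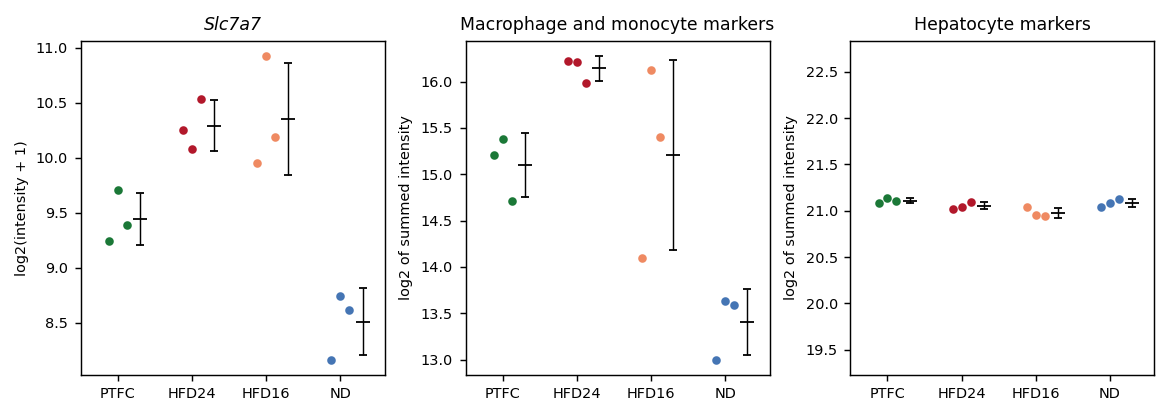
Slc7a7 as log2(intensity + 1) on the left, and log2 of the summed intensity of 10 macrophage and monocyte markers and of 8 hepatocyte markers, on each array (points) with the mean and SD (bars) of 3 arrays in PTFC, HFD24, HFD16 and ND. The marker panels span the same range of log2 units. HFD24 lies above PTFC and PTFC above ND in the first 2 panels, while the hepatocyte sums differ little. Sums were taken after quantile normalization, which limits how far those of the brightest genes can move.

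The promoters of Slc7a7 and Slc36a1 are shown because these genes held a call in all settings tried, one in HFD24 and the other in HFD16. They are RefSeq windows on GRCm38.p6, from 250 bases before to 50 after an annotated start, at chr14:54417895-54418194 on the minus strand for Slc7a7, which has 5 such windows, and at chr11:55204090-55204389 on the plus strand for Slc36a1. Capitals mark TGATGNAA, the amino acid response element of the stress factor ATF4, in Slc7a7, and CACGTG, the E-box of the lysosomal regulator TFEB, in Slc36a1.
Slc7a7: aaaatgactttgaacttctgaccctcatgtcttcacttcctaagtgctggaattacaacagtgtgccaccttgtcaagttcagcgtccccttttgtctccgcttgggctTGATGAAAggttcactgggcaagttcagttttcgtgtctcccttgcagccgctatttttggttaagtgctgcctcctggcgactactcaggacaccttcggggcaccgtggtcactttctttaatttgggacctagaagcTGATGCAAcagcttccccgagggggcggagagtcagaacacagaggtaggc
Slc36a1: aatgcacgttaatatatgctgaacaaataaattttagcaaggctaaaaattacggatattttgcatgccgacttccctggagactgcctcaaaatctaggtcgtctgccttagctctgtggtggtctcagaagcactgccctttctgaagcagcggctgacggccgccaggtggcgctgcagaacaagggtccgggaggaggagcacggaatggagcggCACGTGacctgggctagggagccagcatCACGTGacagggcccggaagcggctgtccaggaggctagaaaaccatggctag
Matches began 141 bases and 1 base before the start in Slc7a7, and 31 and 3 bases before it in Slc36a1. Both strands were searched, and no matches of different motifs overlapped in these windows. TGATGNAA occurred in 3.97% of the 32851 windows of all genes and in 7.46% of the 67 windows of member genes (4 of 46 genes, Slc1a4, Slc6a21, Slc7a11 and Slc7a7). The match nearest the start of Slc7a7 lies in 2 overlapping windows and so counts once in each, and the other 3 windows of this gene hold none. Of its 5 windows, the one shown holds the most matches. CACGTG occurred in 7.15% of all windows and in 13.4% of those of members (9 of 46 genes). GAGGAAGT, the motif of the myeloid factor PU.1, occurred in 3.2% of all windows and, among members, in Slc43a1. A match is a description and not a site.

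The heavy chain Slc3a2, which takes the SLC7 light chains to the cell surface, read 14.27, 14.29 and 14.41 in PTFC, 13.84, 14.12 and 14.23 in HFD24, 13.69, 14.11 and 13.80 in HFD16, and 14.46, 14.31 and 14.32 in ND. All arrays of either high-fat group without the extract lay below those of ND. Slc3a2 fell in HFD16 against ND (-0.50 ± 0.15, limma adjusted p = 0.0382) and did not pass in HFD24 against ND (-0.30, limma adjusted p = 0.192). The HFD16 call was lost without ND replicate 1 (limma adjusted p = 0.134), 2 (0.078), HFD16 replicate 1 (0.12), 3 (0.118) or PTFC replicate 2 (0.0517), and with the replicate number as a block (0.0552) (over all settings 0.0288 to 0.235). Median centring ended this call as well, at -0.29 (limma adjusted p = 0.235). Slc3a1, the heavy chain of the cystine and dibasic amino acid exchanger, averaged 13.33 ± 0.39 in PTFC, 13.56 ± 0.29 in HFD24, 13.75 ± 0.30 in HFD16 and 13.35 ± 0.18 in ND (SD, n = 3), with overlapping groups and no call.

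No other light chain passed in any comparison. Slc7a8, a carrier of large neutral amino acids, was at 12.92 to 13.17 in PTFC, 12.52 to 12.67 in HFD24, 12.14 to 12.72 in HFD16 and 12.34 to 13.10 in ND. PTFC arrays lay above HFD24 arrays (0.42 ± 0.21, limma adjusted p = 0.238). The dim Slc7a6, a second exchanger of dibasic amino acids, averaged 5.36 ± 0.24 in PTFC, 5.94 ± 0.12 in HFD24, 6.03 ± 0.26 in HFD16 and 5.62 ± 0.26 in ND (SD, n = 3). Its PTFC arrays lay below the HFD24 arrays (-0.57 ± 0.21, limma adjusted p = 0.109). The cystine carrier Slc7a11 and the leucine carrier Slc7a5 differed from ND in HFD24 by 0.15 and -0.07, with overlapping groups.

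The cationic carriers of SLC7, which bring in arginine, lysine and ornithine, went both ways. Slc7a2, an arginine carrier known from liver, had levels of 14.75, 14.68 and 14.82 in PTFC, 15.19, 15.51 and 13.97 in HFD24, 14.74, 14.73 and 14.35 in HFD16, and 15.64, 15.81 and 15.53 in ND. Every array of the 3 high-fat groups lay below every ND array. Slc7a2 fell 2.08-fold in HFD16 against ND (-1.05 ± 0.29, limma adjusted p = 0.0259), while HFD24 against ND gave -0.77 ± 0.29 (limma adjusted p = 0.0838), with the third HFD24 array far below the other 2, and PTFC against ND gave -0.91 ± 0.29 (limma adjusted p = 0.119). Its HFD16 call was lost without ND replicate 1 (limma adjusted p = 0.0746), 2 (0.0819), HFD16 replicate 2 (0.0516) or 3 (0.0956) (over all settings 0.00157 to 0.451). Median centring ended this call as well, at -0.87 (limma adjusted p = 0.0633).

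Slc7a1, the arginine carrier of most other tissues, was at 8.31, 8.34 and 8.07 in PTFC, 8.87, 8.60 and 8.57 in HFD24, 8.32, 9.10 and 8.63 in HFD16, and 8.05, 8.26 and 7.88 in ND. HFD24 and HFD16 arrays lay above all ND arrays, whereas PTFC arrays overlapped those of ND. Slc7a1 rose 1.53-fold in HFD24 (0.61 ± 0.20, limma adjusted p = 0.0478) and in HFD16 (0.62 ± 0.20, limma adjusted p = 0.0465). These are the least firm of the calls. In HFD24 it was lost without any 1 of the ND, HFD24 or PTFC arrays or without HFD16 replicate 3 (limma adjusted p 0.0559 to 0.156, and 0.0254 to 0.568 over all settings). In HFD16 it was lost without any 1 of the ND or PTFC arrays, HFD16 replicate 2 or 3, or HFD24 replicate 2 or 3 (limma adjusted p 0.0547 to 0.174), and with the replicate number as a block (0.056) (over all settings 0.0183 to 0.73). A pseudocount of 32 and the values as deposited also ended both calls (limma adjusted p 0.0542 to 0.272). Median centring ended the HFD24 call (limma adjusted p = 0.053).

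Slc7a4, a relative of these carriers, read 8.72, 8.44 and 8.82 in PTFC, 7.88, 8.29 and 8.36 in HFD24, 8.10, 8.14 and 7.78 in HFD16, and 9.09, 9.01 and 8.46 in ND. It fell in HFD24 against ND (-0.67 ± 0.21, limma adjusted p = 0.0378) and in HFD16 against ND (-0.85 ± 0.21, limma adjusted p = 0.0152), with no overlap in either pair. A dimmer probe of the gene gave 0.30 and 0.14 in these comparisons without passing, so its direction depended on the probe. The HFD24 call was lost without ND replicate 1 (limma adjusted p = 0.157), 2 (0.131), HFD24 replicate 1 (0.146) or 2 (0.0586) (over all settings 0.00755 to 0.273), and the HFD16 call without ND replicate 1 (0.0725), 2 (0.0579) or HFD16 replicate 3 (0.0668) (over all settings 0.00468 to 0.292). On the values as deposited the HFD24 call was lost as well (limma adjusted p = 0.0654).

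Of the 11 sodium-coupled neutral carriers of SLC38, Slc38a1 rose, Slc38a2 fell in HFD24 and the others did not pass. Slc38a1, a glutamine and alanine carrier best known from neurons, was at 7.12, 7.78 and 7.10 in PTFC, 8.83, 8.18 and 8.57 in HFD24, 7.16, 9.42 and 8.47 in HFD16, and 6.01, 6.55 and 6.97 in ND. HFD24 arrays lay above all PTFC arrays, and PTFC arrays above all ND arrays. Slc38a1 stood 4.05-fold above ND in HFD24 (2.02 ± 0.44, limma adjusted p = 0.00787), the largest difference among the members called there, and 3.58-fold higher in HFD16 than in ND (1.84 ± 0.44, limma adjusted p = 0.0146). The HFD24 call was lost with the array step as a covariate, at 0.83 (limma adjusted p = 0.282), and over all settings the difference ran from 0.83 to 2.25 (limma adjusted p 0.000597 to 0.282). PTFC differed from HFD24 by -1.19 ± 0.44 (limma adjusted p = 0.119). The first HFD16 array was the lowest of its group and the second the highest, as in the sums of macrophage and several other cell markers. Its HFD16 call was lost without ND replicate 1 (limma adjusted p = 0.0678) or HFD16 replicate 3 (0.0515) (over all settings 0.000523 to 0.661). Of 2 dimmer Slc38a1 probes, one also gave a rise (1.44 in HFD24, limma adjusted p = 0.00548, and 1.12 in HFD16, limma adjusted p = 0.0211) and the other gave -0.05 and 0.06.

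Slc38a2, which takes up alanine and glutamine and responds to amino acid shortage in many cells, read 13.11, 13.88 and 13.62 in PTFC, 13.08, 13.04 and 13.38 in HFD24, 13.48, 13.68 and 13.60 in HFD16, and 13.66, 13.81 and 14.26 in ND. HFD24 arrays lay below all ND and all HFD16 arrays and overlapped those of PTFC. The fall in HFD24 against ND was 1.67-fold (-0.74 ± 0.21, limma adjusted p = 0.0266). It did not pass without ND replicate 2 (limma adjusted p = 0.0586), 3 (0.0648), HFD24 replicate 1 (0.0887) or 2 (0.0744) (over all settings 0.016 to 0.159). Median centring ended this call as well, at -0.58 (limma adjusted p = 0.159). HFD16 against ND gave -0.32 ± 0.21 (limma adjusted p = 0.297).

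The glutamine carrier Slc38a3 and the neutral carrier Slc38a4, both abundant in hepatocytes, did not pass in any comparison. Slc38a3 averaged 15.47 ± 0.37 in PTFC, 15.14 ± 0.42 in HFD24, 15.37 ± 0.12 in HFD16 and 15.28 ± 0.41 in ND (SD, n = 3). Slc38a4 averaged 15.23 ± 0.11 in PTFC, 15.25 ± 0.51 in HFD24, 15.21 ± 0.19 in HFD16 and 15.45 ± 0.09 in ND, and 1 HFD24 array at 14.67 accounted for most of that group's spread. Slc38a9, which senses arginine at the lysosome, differed by -0.04 in HFD24 against ND.

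Among the proton-coupled carriers of SLC36, Slc36a1, which lets small amino acids leave the lysosome, rose on the high-fat diet. Its levels were 11.33, 11.04 and 11.22 in PTFC, 12.08, 11.67 and 11.68 in HFD24, 12.36, 12.07 and 12.28 in HFD16, and 11.52, 11.10 and 10.91 in ND. All arrays of HFD24 and HFD16 lay above all arrays of PTFC and ND, which overlapped. The rise was 2.09-fold in HFD16 against ND (1.06 ± 0.19, limma adjusted p = 0.0041) and held in all 18 alternatives, between 0.92 and 1.38. In HFD24 against ND it was 1.55-fold (0.63 ± 0.19, limma adjusted p = 0.0356). This smaller rise was lost without ND replicate 2 (limma adjusted p = 0.111), 3 (0.0769), HFD24 replicate 1 (0.143), 3 (0.0505) or HFD16 replicate 3 (0.0519) (over all settings 0.0201 to 0.143). PTFC differed from HFD24 by -0.61 ± 0.19 (limma adjusted p = 0.0727) and from ND by 0.02. Slc36a4, an amino acid carrier of the same family, averaged 9.42 ± 0.20 in PTFC, 9.32 ± 0.19 in HFD24, 9.34 ± 0.23 in HFD16 and 9.80 ± 0.27 in ND (SD, n = 3) without a call (-0.48 in HFD24 against ND, limma adjusted p = 0.0999).

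**Figure D3:**
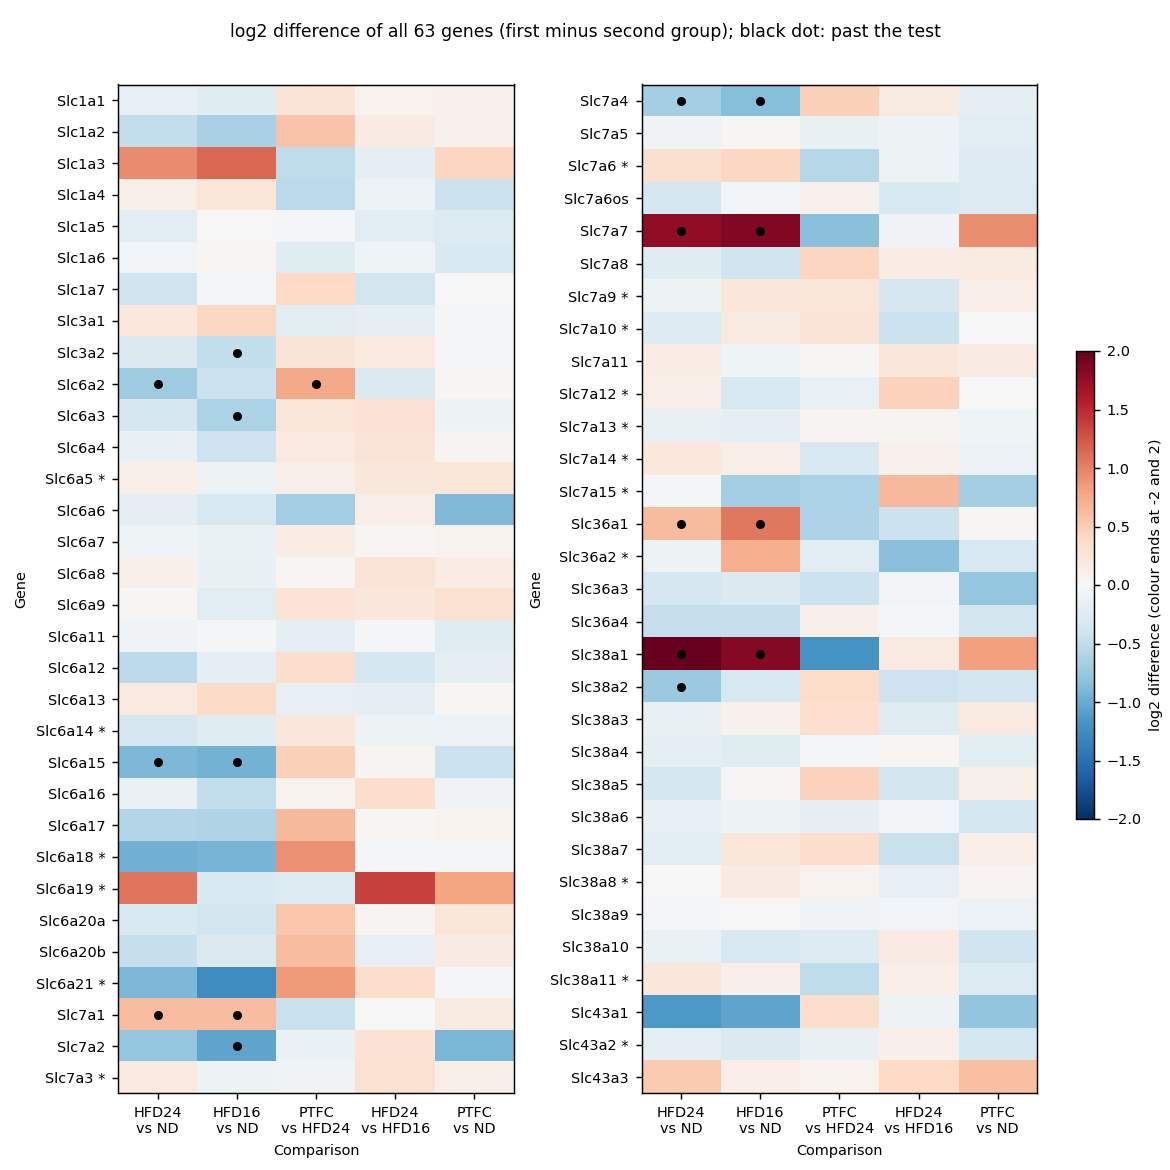
Log2 differences of all 63 members (rows) in the 5 comparisons (columns), first minus second group, as colour from blue (lower) to red (higher). Black dots mark limma calls and asterisks the 17 members in the dimmest 25% of genes. Calls of HFD24 and HFD16 against ND fall on red and blue cells alike, and Slc6a2 holds the 1 dot of PTFC against HFD24.

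In SLC6, 2 of 20 members fell in HFD24 against ND, 2 fell in HFD16 against ND and none rose in either. Over all genes 8.28% and 8.11% fell in these comparisons, and 9.97% and 10% rose. Slc6a15, a carrier of branched-chain amino acids and proline best known from neurons, was at 7.15, 7.62 and 7.77 in PTFC, 7.01, 7.25 and 6.85 in HFD24, 6.82, 6.98 and 7.15 in HFD16, and 7.85, 7.94 and 8.01 in ND. Every array of the 3 high-fat groups lay below every ND array. The fall was 1.86-fold in HFD24 (-0.90 ± 0.18, limma adjusted p = 0.00563) and 1.94-fold in HFD16 (-0.95 ± 0.18, limma adjusted p = 0.00571), and with 1 array left out it passed in each of the fits. With the array step as a covariate neither passed (limma adjusted p = 0.113 and 0.197). PTFC against HFD24 gave 0.48 ± 0.18 (limma adjusted p = 0.133).

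The monoamine carriers act at nerve endings, and their transcripts are not typical of hepatocytes. Slc6a2, the noradrenaline carrier, read 9.05, 8.65 and 9.10 in PTFC, 8.22, 8.20 and 8.13 in HFD24, 8.54, 8.46 and 8.43 in HFD16, and 9.19, 8.98 and 8.52 in ND. HFD24 arrays lay below all arrays of the other 3 groups. Slc6a2 fell 1.64-fold in HFD24 against ND (-0.72 ± 0.18, limma adjusted p = 0.0175) and was 1.68-fold higher in PTFC than in HFD24 (0.75 ± 0.18, limma adjusted p = 0.0358), the 1 member called there. Both comparisons share the HFD24 arrays. PTFC and ND differed by 0.04. The difference from ND was lost without ND replicate 1 (limma adjusted p = 0.0913), 2 (0.0658) or HFD24 replicate 3 (0.0507) (over all settings 0.00294 to 0.286).

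Slc6a3, the dopamine carrier, averaged 11.07 ± 0.15 in PTFC, 10.83 ± 0.21 in HFD24, 10.54 ± 0.18 in HFD16 and 11.17 ± 0.26 in ND (SD, n = 3). The HFD16 arrays, at 10.74, 10.38 and 10.51, lay below the ND arrays, at 10.93, 11.13 and 11.45. It fell in HFD16 against ND (-0.63 ± 0.18, limma adjusted p = 0.0327), and that call was lost without ND replicate 2 (limma adjusted p = 0.0733), 3 (0.0706), HFD16 replicate 2 (0.102) or 3 (0.0974), and with the replicate number as a block (0.0551) (over all settings 0.0282 to 0.281). Median centring ended this call as well, at -0.45 (limma adjusted p = 0.15). The serotonin carrier Slc6a4 did not pass in any comparison (-0.15 in HFD24 against ND). Of 4 neuron markers, 1 rose in HFD24 against ND and none passed in PTFC against HFD24, and their summed intensity was 1390 to 1690 in PTFC, 1422 to 1679 in HFD24, 1568 to 1684 in HFD16 and 1647 to 1954 in ND.

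The carriers of glycine, taurine, GABA and betaine did not pass. Slc6a13, a GABA and taurine carrier of hepatocytes, averaged 16.04 ± 0.22 in PTFC, 16.21 ± 0.22 in HFD24, 16.41 ± 0.33 in HFD16 and 16.02 ± 0.32 in ND (SD, n = 3), with overlapping groups. The taurine carrier Slc6a6 was at 12.82, 12.92 and 12.54 in PTFC, 12.94, 13.65 and 13.76 in HFD24, 13.31, 13.26 and 13.41 in HFD16, and 13.66, 13.31 and 13.96 in ND. PTFC arrays lay below all others, by -0.69 ± 0.22 against HFD24 (limma adjusted p = 0.0812) and -0.88 ± 0.22 against ND (limma adjusted p = 0.0579). The glycine carrier Slc6a9 averaged 14.55 ± 0.41 in PTFC, 14.27 ± 0.60 in HFD24, 14.04 ± 0.02 in HFD16 and 14.25 ± 0.40 in ND. The proline carriers Slc6a20a and Slc6a20b, close copies of each other whose probes were not checked for cross-hybridization, were higher in all PTFC arrays than in all HFD24 arrays (0.56 ± 0.23, limma adjusted p = 0.151, and 0.61 ± 0.18, limma adjusted p = 0.0575). Slc6a18, a kidney carrier of neutral amino acids in the dimmest 25%, gave 0.92 ± 0.36 there (limma adjusted p = 0.132).

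Neither SLC1 nor SLC43 had a call. The glutamate carrier Slc1a2, which in liver is known from hepatocytes around the central vein, read 14.84, 14.40 and 14.36 in PTFC, 14.21, 13.76 and 13.91 in HFD24, 13.81, 13.55 and 14.03 in HFD16, and 14.20, 14.08 and 15.05 in ND. PTFC arrays lay above HFD24 arrays (0.58 ± 0.24, limma adjusted p = 0.164), whereas a dimmer probe gave -0.15 ± 0.18 there (limma adjusted p = 0.674). HFD24 and ND overlapped (-0.48 ± 0.24, limma adjusted p = 0.186). Slc1a4, a carrier of alanine, serine and cysteine, averaged 10.86 ± 0.26 in PTFC, 11.40 ± 0.53 in HFD24, 11.52 ± 0.24 in HFD16 and 11.29 ± 0.64 in ND (SD, n = 3). Slc1a3, a glutamate carrier best known from glia, averaged 7.77 in PTFC, 8.28 in HFD24, 8.48 in HFD16 and 7.33 in ND, and its smallest adjusted p was 0.0711, in HFD16 against ND. Slc43a1, a carrier of branched-chain amino acids, was at 7.98 to 8.09 in PTFC, 6.68 to 8.61 in HFD24, 7.68 to 7.95 in HFD16 and 8.30 to 9.50 in ND (-1.14 ± 0.39 in HFD24 against ND, limma adjusted p = 0.0564). Slc43a3, a carrier of purine bases in spite of its family, was at 13.21 to 13.39 in PTFC, 13.14 to 13.33 in HFD24, 12.60 to 13.23 in HFD16 and 12.46 to 12.89 in ND (0.53 ± 0.18 in HFD24 against ND, limma adjusted p = 0.0608).

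The 36 members not described by the naming rule had no call. Their differences ran from -0.90 for Slc6a21 to 1.07 for Slc6a19 in HFD24 against ND, from -0.63 for Slc7a15 to 0.86 for Slc6a21 in PTFC against HFD24, and from -1.24 for Slc6a21 to 1.14 for Slc1a3 in HFD16 against ND. Slc6a21, Slc6a19 and Slc7a15 lie in the dimmest 25%.

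For 9 members there were 12 further, dimmer probes. The dimmer Slc1a2 probe passed in HFD24 against ND (-0.81 ± 0.18, limma adjusted p = 0.00983), in HFD16 against ND (-0.93 ± 0.18, limma adjusted p = 0.0064) and in PTFC against ND (-0.95 ± 0.18, limma adjusted p = 0.0215), where the brightest probe gave -0.48, -0.65 and 0.09. The 2 probes thus differed in direction in PTFC against ND, as in PTFC against HFD24. A dimmer Slc38a9 probe gave 0.43 ± 0.15 in HFD24 against ND without passing (limma adjusted p = 0.0685), against -0.04 from the brightest. The dimmer Slc3a2 probe gave -0.77 ± 0.28 in HFD16 against ND (limma adjusted p = 0.0699), the same direction as the brightest. The dimmer Slc6a20b probe gave 0.08 ± 0.32 in PTFC against HFD24 (limma adjusted p = 0.911), against 0.61 from the brightest.

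**Figure D4:**
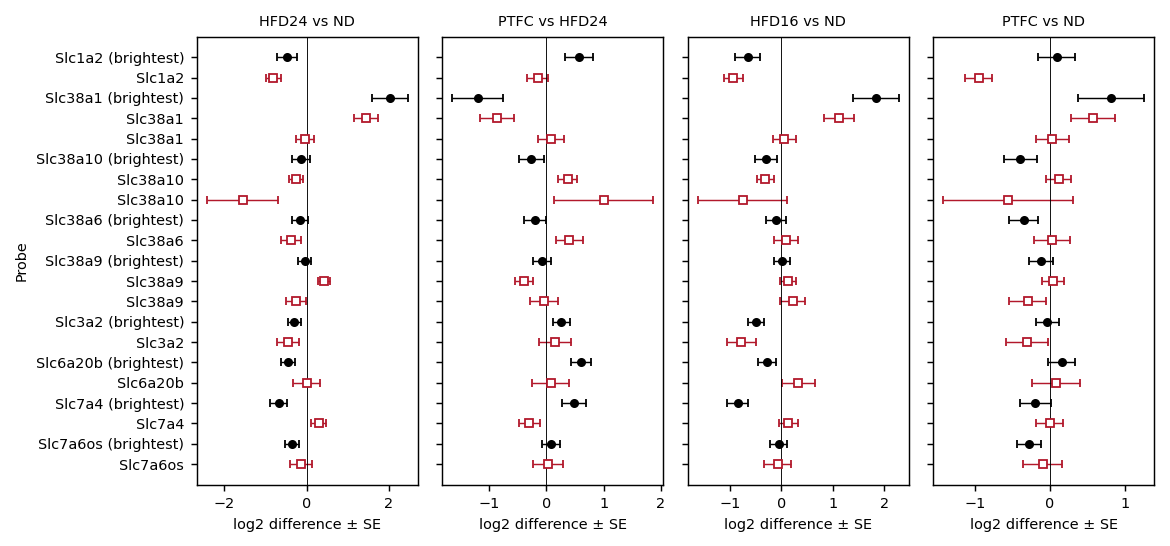
Log2 differences with their SE (bars) for each probe of the 9 members with more than 1 probe, in 4 comparisons, each with its own axis. Black circles are the brightest probe and red open squares the dimmer ones. The probes of Slc7a4 lie on opposite sides of 0 in HFD24 against ND, and 1 of the 3 Slc38a1 probes stays near 0.

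The comparison of PTFC with HFD24 asks what the extract changed on the same diet. Slc6a2 was the 1 of 63 members that passed (1.59%), against 6% of all genes (2.96% higher). Its call was lost without HFD24 replicate 1 (limma adjusted p = 0.0953), 2 (0.0786) or 3 (0.0822), PTFC replicate 1 (0.0841) or 3 (0.171) or HFD16 replicate 3 (0.0539), and with the replicate number as a block (0.0599) (over all settings 0.0133 to 0.171). The count of members was 0 in these fits, in which 0.0576% to 3.36% of all genes passed. It was 4 without ND replicate 3 (6.35%, against 10.4% of all genes), 3 without HFD16 replicate 1 (4.76%, against 7.98%) and 2 without HFD16 replicate 2 (3.17%, against 7.21%). On the values as deposited 4 members passed, all higher (6.35%, against 8.7%), and under median centring 2 higher and 3 lower (7.94%, against 8.46%), while the median of all genes as deposited shifted by 0.24. Beside Slc6a2, these were Slc6a15, Slc6a20b and Slc6a21 as deposited. Under median centring they were Slc6a20b on the higher side and Slc36a1, Slc6a6 and Slc7a7 on the lower. Slc7a7 also passed with the array step as a covariate and without HFD16 replicate 1 or 2. The alternatives reuse the same arrays. The arrays did not overlap for 21 members, 14 higher and 7 lower (33.3%, against 31.1% of all genes, with 15.9% higher and 15.2% lower). The 14 higher ones (22.2%) were Slc1a1, Slc1a2, Slc1a7, Slc38a5, Slc3a2, Slc6a14, Slc6a17, Slc6a18, Slc6a2, Slc6a20a, Slc6a20b, Slc6a7, Slc7a4 and Slc7a8. The 7 lower ones (11.1%) were Slc1a3, Slc36a1, Slc38a1, Slc6a6, Slc7a1, Slc7a6 and Slc7a7, and none of these passed in the main fit. The HFD24 arrays also enter the comparison with ND. The median difference of the members was 0.06, beside 0.01 over all genes.

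**Figure D5:**
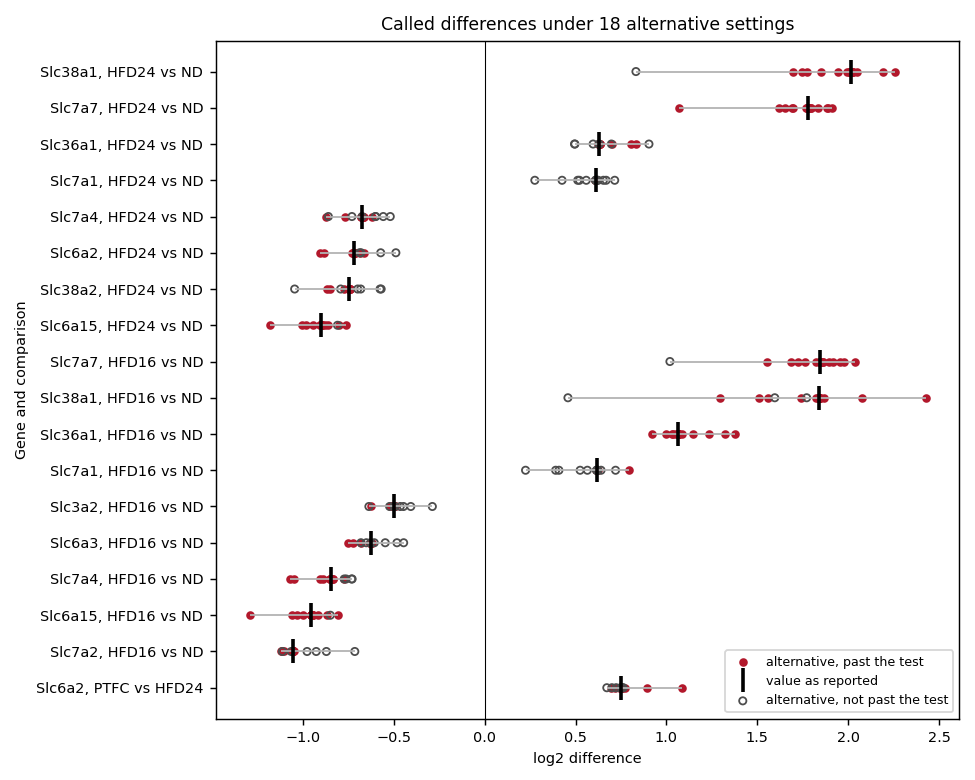
Log2 differences of the 18 calls of members under each processing setting, with the value as reported (black bar), alternatives past limma's test (filled points) and alternatives not past it (open points). Slc7a7 in HFD24 against ND and Slc36a1 in HFD16 against ND passed throughout, and the Slc7a1 calls in the fewest settings.

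In HFD24 against HFD16, limma called 0 of 63 members, with 0.0367% of all genes called. At an unadjusted p under 0.05 there were 3 (9.78% of all genes), Slc36a1 at -0.43, Slc43a3 at 0.39 and the dim Slc6a19 at 1.37. In PTFC against ND, limma also called 0 members, with 2.33% of all genes called. At an unadjusted p under 0.05 there were 6 (17.1% of all genes), with Slc7a7 at 0.94 and Slc43a3 at 0.60 on the higher side and Slc7a2 at -0.91, Slc6a6 at -0.88, Slc36a3 at -0.77 and Slc6a15 at -0.42 on the lower.

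Genes of amino acid handling around the carriers were counted in 5 lists. Of 19 measured targets of ATF4, which answers amino acid shortage and other stress, 6 were higher and 1 lower in HFD24 than in ND (36.8%, median 0.39), 4 fell in PTFC against HFD24 (21.1%, median -0.17), and 6 rose and 4 fell in HFD16 against ND (52.6%, median 0.02), beside 18.3%, 6% and 18.1% of all genes. Their summed intensity, which the brightest genes set, ran the other way, at 187204 to 204059 in HFD24 against 226912 to 270413 in ND (exact permutation p = 0.1). The proline synthesis enzyme Aldh18a1, in the dimmest 25% of genes, was higher in HFD24 than in ND by 1.72 ± 0.28. The stress gene Nupr1 was higher by 2.30 ± 0.40, while the asparagine synthetase Asns was lower by -2.08 ± 0.55. With PTFC the folate enzyme Mthfd2 was lower than in HFD24 by -1.48 ± 0.27, the transcription factor Atf3 by -1.84 ± 0.35 and Nupr1 by -1.59 ± 0.40. The Asns call was lost without ND replicate 1 (limma adjusted p = 0.096) or 2 (0.0581) or HFD24 replicate 1 (0.0825) or 2 (0.0562). In PTFC against HFD24, Mthfd2 lost its call without HFD24 replicate 1 (0.0585) or PTFC replicate 3 (0.0984), Atf3 without PTFC replicate 3 (0.113), and Nupr1 without any 1 of the HFD24 or PTFC arrays, ND replicate 2 or HFD16 replicate 3 (0.0519 to 0.191).

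In the lysosomal amino acid sensing list 3 of 23 members were higher and 1 lower in HFD24 than in ND (17.4%, near the 18.3% of all genes), and 2 were higher in HFD16 than in ND (8.7%, against 18.1%). The GTPase Rragd was higher by 1.41 ± 0.22 and passed with any 1 array left out, as did the arginine sensor relative Castor2 at 1.05 ± 0.22. Castor2 was the 1 member of the list that fell in PTFC against HFD24 (-1.05 ± 0.22), a call lost without any 1 of the HFD24 arrays or PTFC replicate 2 or 3 (limma adjusted p 0.0527 to 0.114). Rragb fell by 0.64 on the log2 scale in HFD24 against ND, and lost its call without ND replicate 1 or 2, HFD16 replicate 3, HFD24 replicate 1 or 3, or any 1 of the PTFC arrays (limma adjusted p 0.053 to 0.181). With the array step as a covariate the calls of Rragd, Castor2, Aldh18a1 and Nupr1 against ND were lost as well (limma adjusted p = 0.0634, 0.0832, 0.0617 and 0.0968). So were those of Asns (0.132) and Rragb (0.42). Rragb was also lost under median centring (0.0508), as deposited (0.0646) and with the replicate block (0.0613). In PTFC against HFD24 the values as deposited ended the calls of Mthfd2 (0.0542), Nupr1 (0.057) and Castor2 (0.0863), and the replicate block that of Nupr1 (0.0607).

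Of 9 urea cycle and ammonia genes 2 fell in HFD24 against ND, the activator enzyme Nags (-0.56 ± 0.15) and the mitochondrial ornithine carrier Slc25a15 (-1.03 ± 0.29), and of 36 amino acid breakdown genes 2 fell, Tat (-0.87 ± 0.22) and Agxt (-1.13 ± 0.32), and 1 rose, Amt (0.96 ± 0.26). Among 8 genes of glutathione turnover Ggt5 rose (1.26 ± 0.30) and Oplah fell (-0.67 ± 0.20). Amt and Ggt5 lie in the dimmest 25% of genes. The shares called were 22.2%, 8.33% and 25%, beside 18.3% of all genes. In HFD16 against ND the urea cycle list had 1 higher and 2 lower (33.3%), the breakdown list 1 higher and 6 lower (19.4%) and the glutathione list 2 higher and 1 lower (37.5%), beside 18.1% of all genes. None of these 3 lists had a call in PTFC against HFD24. Each of these 7 calls was lost in some fit with 1 array left out. Nags lost it without ND replicate 1 or 2 or HFD24 replicate 2 or 3 (limma adjusted p 0.0511 to 0.111), Slc25a15 and Agxt without ND replicate 1 or 2 or HFD24 replicate 3 (0.0736 to 0.102), and Tat without HFD24 replicate 3 (0.061). Amt lost it without ND replicate 3 or HFD24 replicate 1 (0.0539 and 0.0907), Ggt5 without ND replicate 1 or HFD24 replicate 1 (0.0649 and 0.0532), and Oplah without ND replicate 2 or 3 or HFD24 replicate 1 or 3 (0.0507 to 0.0973). Median centring also ended all of these calls but that of Ggt5 (limma adjusted p 0.0542 to 0.197). The values as deposited ended those of Amt (0.173) and Ggt5 (0.0669). With the array step as a covariate, largely confounded with diet here, all 7 were lost (0.051 to 0.385).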

How the data were processed

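Liver RNA was measured on 12 single-colour arrays. RNA extraction used Trizol, and the amplified RNA carried Cy5, per the labels' protocols. The authors deposited linear intensity values for 26423 probes. Their background correction and scaling are not given in the sources used here. The platform table named 21876 probes, for 19084 genes, and left 4547 unnamed here. Values below 0 were set to 0, a pseudocount of 1 was added, log2 taken and all probes quantile normalized across arrays, and the probe of highest mean stood for its gene. Group means of all 12 arrays were fitted by lmFit, contrasts.fit and eBayes with trend (limma 3.58.1 under R 4.3.3), with no replicate block. All tests were two-sided, with Benjamini-Hochberg adjustment over all genes and a threshold of 0.05. Summed intensities were taken from the quantile-normalized values, turned back to the linear scale, and compared by exact permutation over arrays. The step of an array is the unit of which its deposited values are whole multiples, within a tolerance of 0.02. The scripts were tested on simulated data. Tables were handled in Python 3.11.15. For arrays, their number per group limits the precision.

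The members, the 5 pathway and 13 marker lists, and the motifs were chosen with earlier results of these data known. Named members were those called in any comparison and the 2 of highest level in each family. The 5 of smallest p in each direction, in HFD24 against ND and in PTFC against HFD24, were added, which gave 27. A few others were named after their values were seen. Of each pathway list, called genes among the 3 of smallest p in these 2 comparisons were named. Alternatives were a pseudocount of 32, median centring, the values as deposited, leaving out the dimmest 25% of genes, the replicate number as a block, the array step as a covariate, and leaving out each array. For the pathway lists these alternatives were added after seeing the data. Deviations from the group means were correlated across genes between same-numbered arrays. For HFD16 and ND all 3 pairs exceeded 0.1 (0.11 to 0.15, against -0.11 to -0.03 over 6 pairs of other numbers). In the other 5 pairs of groups not all same-numbered pairs exceeded 0.1 (-0.29 to 0.17). Arrays of other numbers reached 0.26 in PTFC and ND, so values of this size do not show that the numbers pair the arrays. The main fit did not pair them. The replicate block was fitted in every comparison, so it does not test a pairing of HFD16 and ND alone. Calls lost with the block in HFD16 against ND are given beside their genes.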

Additional observations from a re-analysis of the deposited data

How the results depend on the processing

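The counts of members called, and the differences of members that the report gives, were recomputed under 18 alternatives (17 for members in the dimmest 25%, and likewise for Aldh18a1, Amt and Ggt5 of the pathway lists). Those of members outside the naming rule were added after seeing the data. Of the 18 calls of members 2 passed in all alternatives, Slc7a7 in HFD24 against ND and Slc36a1 in HFD16 against ND. No called difference changed sign. With 1 array left out, the count of members called ran from 3 to 13 in HFD24 against ND (9.11% to 25.9% of all genes), from 3 to 15 in HFD16 against ND (7.02% to 23.6%), from 0 to 4 in PTFC against HFD24 (0.0576% to 10.4%) and from 0 to 1 in PTFC against ND (0.304% to 3.44%), and it was 0 throughout in HFD24 against HFD16. With the array step as a covariate, the counts were 1 in HFD24 against ND (2% of all genes), 1 in HFD16 against ND (0.529%) and 4 in PTFC against HFD24 (8.89%). PTFC against HFD24 gave 5 under median centring (8.46%), 4 on the values as deposited (8.7%), 2 without the dimmest 25% of genes (7.42%) and 0 with the replicate block (1.77%). PTFC against ND gave 1 without the dimmest 25% (4.14%). The replicate block gave 7 members in HFD24 against ND (14.8% of all genes) and 6 in HFD16 against ND (14.5%), where it ended the calls of Slc3a2, Slc6a3 and Slc7a1. In HFD24 against ND the block ended the calls of Slc7a4 (limma adjusted p = 0.0643) and Slc7a1 (0.0568). The labels do not say whether the numbers pair the arrays, and the correlations between arrays cannot settle it. What a call lost under the block means was not tested. The causes of these shifts were not tested.

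Among these, reversals touched 24 differences that were not called. On the values as deposited these were Slc38a4 (0.0901) and Slc6a13 (0.0421) in PTFC against HFD24 and Slc6a9 (-0.0355), Slc7a11 (-0.00628) and Slc7a6 (-0.11) in HFD24 against ND. Under median centring they were Slc3a2 (-0.0167), Slc43a3 (-0.21), Slc6a3 (-0.0383) and Slc6a9 (-0.00077) in PTFC against HFD24, Slc38a9 (0.0815) in HFD24 against ND, and Slc1a2 (-0.0438) and Slc36a1 (-0.0684) in PTFC against ND. With the step covariate they were Slc38a4 (0.14), Slc3a1 (-0.24), Slc6a4 (0.0885) and Slc6a9 (-0.18) in HFD24 against ND and Slc38a4 (0.0105) in PTFC against HFD24. With 1 array left out, HFD24 against ND ran from -0.25 to 0.42 for Slc1a4, from -0.35 to 0.0628 for Slc38a3, from -0.38 to 0.10 for Slc38a4, from -0.16 to 0.0634 for Slc38a9, from -0.36 to 0.0622 for Slc6a6, from -0.31 to 0.28 for Slc6a9 and from -0.18 to 0.11 for Slc7a5. PTFC against HFD24 ran from -0.00896 to 0.20 for Slc36a4, from -0.31 to 0.16 for Slc38a4, from -0.16 to 0.80 for Slc43a1, from -0.98 to 0.0341 for Slc7a15 and from -0.60 to 0.17 for Slc7a2. PTFC against ND ran from -0.0889 to 0.40 for Slc1a2, from -0.12 to 0.19 for Slc36a1 and from -0.15 to 0.18 for Slc6a2.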

Other observations

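Markers of other cells than hepatocytes and macrophages moved as well in HFD24 against ND. All 7 stellate cell markers rose, with summed intensities of 103518 to 156403 in PTFC, 116068 to 163999 in HFD24, 92304 to 173694 in HFD16 and 46375 to 81547 in ND, and 3 of the 7 fell in PTFC against HFD24. Of 7 T and NK cell markers 4 rose in HFD24 against ND and 2 fell in PTFC against HFD24, with Cd4 and Cd5 in the dimmest 25%. Endothelial markers rose in 3 of 5 cases and neutrophil markers in 2 of 4, and 1 neutrophil marker fell in PTFC against HFD24. Of 3 B cell markers 1 rose and 1 fell in either comparison. Of 4 cholangiocyte markers 1 fell in HFD24 against ND, none of 3 adipocyte markers passed in either comparison, and of 3 pancreas markers 2 fell in HFD24 against ND and 1 rose in PTFC against HFD24.

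The 2 kidney markers measured, Umod and Slc12a1, summed to 205 to 298 in PTFC, 175 to 33605 in HFD24, 191 to 303 in HFD16 and 207 to 234 in ND. The second HFD24 array alone held the high sum, and neither marker passed. The 3 adipocyte markers summed to 634 to 712 in PTFC, 499 to 567 in HFD24, 418 to 3569 in HFD16 and 618 to 858 in ND. The third HFD16 array alone held that high sum, and the dim proton-coupled carrier Slc36a2 was also highest on it (6.71, against 3.86 to 4.91 on the others).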
